A study of Mus musculus with 10 samples.

Results

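The genes described here are 10 genes of hepatic stellate cells and of the liver's extracellular matrix, out of 38922 genes in the deposited tables. They were chosen by name: Lrat, Des, Reln and Pdgfrb as genes of stellate cell identity, Dcn and Ecm1 as matrix glycoproteins, Col1a1, Col1a2 and Col3a1 as fibrillar collagens, and Col4a1 as a collagen of basement membranes. All 10 had enough counts to be among the 13719 genes tested. Whole livers of wildtype male C57BL/6N mice aged 6 weeks were collected 6 h after an intraperitoneal injection. Acute liver failure was induced in 5 mice with 0.5 µg/g body weight of CD95-Ab, an antibody that activates the death receptor Fas (CD95), and 5 control mice received saline in an equal volume. The comparison asks which of these genes differed in liver RNA between the groups.

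Stellate cells lie in the space between the sinusoidal endothelium and the hepatocytes. In the healthy liver they store vitamin A as retinyl esters, which the enzyme encoded by Lrat makes from retinol. After injury they can turn into contractile myofibroblasts that lose their vitamin A and deposit collagen, a process driven in part by platelet-derived growth factor (PDGF) acting on the receptor encoded by Pdgfrb. Type I collagen is a trimer of the products of Col1a1 and Col1a2, and it forms fibrils together with type III collagen, the product of Col3a1. Type IV collagen, mainly made from Col4a1 and Col4a2, forms sheets in basement membranes and is produced by endothelial cells as well as stellate cells. Several of these genes are also active in other cells: Des is also a gene of smooth muscle, Ecm1 of hepatocytes, Dcn of portal fibroblasts and Reln of lymphatic endothelium.

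Col4a1 is the neighbour of Col4a2. In the GENCODE annotation of GRCm38, which is the build of all gene positions given here, Col4a1 on the reverse strand and Col4a2 on the forward strand of chromosome 8 point away from each other, and their first exons share 22 bases. A promoter sequence was found in RefSeq (GRCm38.p6) for 7 of the 10 genes. The 100 bases before the RefSeq start are shown for 5 of them, so that a gene that did not pass the test (Lrat), 3 that rose (Des, Reln and Ecm1) and a fibrillar collagen (Col3a1) can be read side by side. The TATA box was searched as the letters TATAAA and the box of NF-Y as the letters CCAAT, while the GC box was searched as the letters GGGCGG and the AP-1 motif as the letters TGANTCA. Capitals mark matches on either strand.
Lrat, chr3:82903975-82904074, reverse strand: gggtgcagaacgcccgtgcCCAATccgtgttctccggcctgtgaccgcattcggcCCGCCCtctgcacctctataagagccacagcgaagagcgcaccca
Des, chr1:75360192-75360291, forward strand: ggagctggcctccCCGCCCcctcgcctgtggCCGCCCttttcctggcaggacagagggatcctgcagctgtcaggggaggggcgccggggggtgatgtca
Reln, chr5:22344706-22344805, reverse strand: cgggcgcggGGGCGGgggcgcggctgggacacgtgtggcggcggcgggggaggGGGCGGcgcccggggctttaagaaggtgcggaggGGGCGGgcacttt
Ecm1, chr3:95739570-95739669, reverse strand: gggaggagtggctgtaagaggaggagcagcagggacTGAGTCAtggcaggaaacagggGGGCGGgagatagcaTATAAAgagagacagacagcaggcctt
Col3a1, chr1:45311438-45311537, forward strand: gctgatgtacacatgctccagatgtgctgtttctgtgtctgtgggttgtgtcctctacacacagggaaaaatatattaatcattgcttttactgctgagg

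Positions in these sequences are counted back from the start, with -1 as the last base shown. Reln carried a GC box in 3 places of the stretch shown, at -91, -47 and -13, and 6 within the 250 bases searched. Ecm1 held a TATA box at -27, a GC box at -42 and the only AP-1 motif among the 7 promoters, at -64. Des had GC boxes at -87 and -69, and Lrat had an NF-Y box at -81 and a GC box at -45. The stretch of Col3a1 shown held none of these motifs, and its TATA box lay further away at -117. Col4a1 and Col1a2 are not shown. Col4a1 had an NF-Y box at -145, and Col1a2 an NF-Y box at -109 and GC boxes at -205 and -188. Of the 7 promoters, 2 held a TATA box, 3 an NF-Y box, 5 a GC box and 1 an AP-1 motif. Among 32851 promoters, the 250 bases before the start held a TATA box in 12.4% and an NF-Y box in 33.8%. A GC box occurred in 32.7% and an AP-1 motif in 6.7%. The motif TTCNNNGAA, bound by STAT factors, occurred in 7.0% of all promoters and in none of the 7. Such matches describe the letters and do not show that a factor was bound.

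Depth allowed all 10 genes to be measured. The total per mouse was between 25965699 and 62097636 counts after saline and between 27480796 and 44962196 after CD95-Ab, and 3 counts corresponded to at most 0.121 CPM, which are counts on a library total of 1000000. The lowest value of any of the 10 genes was the 60 counts of Des in 1 mouse, and the highest was the 12129 counts of Dcn. Hepatocyte markers summed to between 43839.7 and 126899.2 CPM across all mice. The total was adjusted by the TMM method, and a gene passed the test at a false discovery rate (FDR) of 0.05 or less in edgeR's quasi-likelihood test with Benjamini-Hochberg adjustment over all tested genes.

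Of the 10 genes, 6 were higher after CD95-Ab than in saline-injected controls, 0 were lower, and 4 did not pass the test. Across all tested genes, 47.3% passed, 25.4% as higher and 22.0% as lower. The median log2 fold change of the 10 genes was 1.02, and that of all tested genes was 0.01. In 5 of the 10 genes every CD95-Ab mouse exceeded every saline mouse, which held for 18.6% of all tested genes. Col4a1 alone, 1 of the 10, also had a log2 fold change of at least 2, as did 6.59% of all tested genes. The genes that passed were Des, Reln, Pdgfrb, Dcn, Ecm1 and Col4a1, and those that did not were Lrat and the 3 fibrillar collagens. In a whole liver, a change in the number of cells of a type and a change in RNA per cell cannot be told apart.

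**Figure D1:**
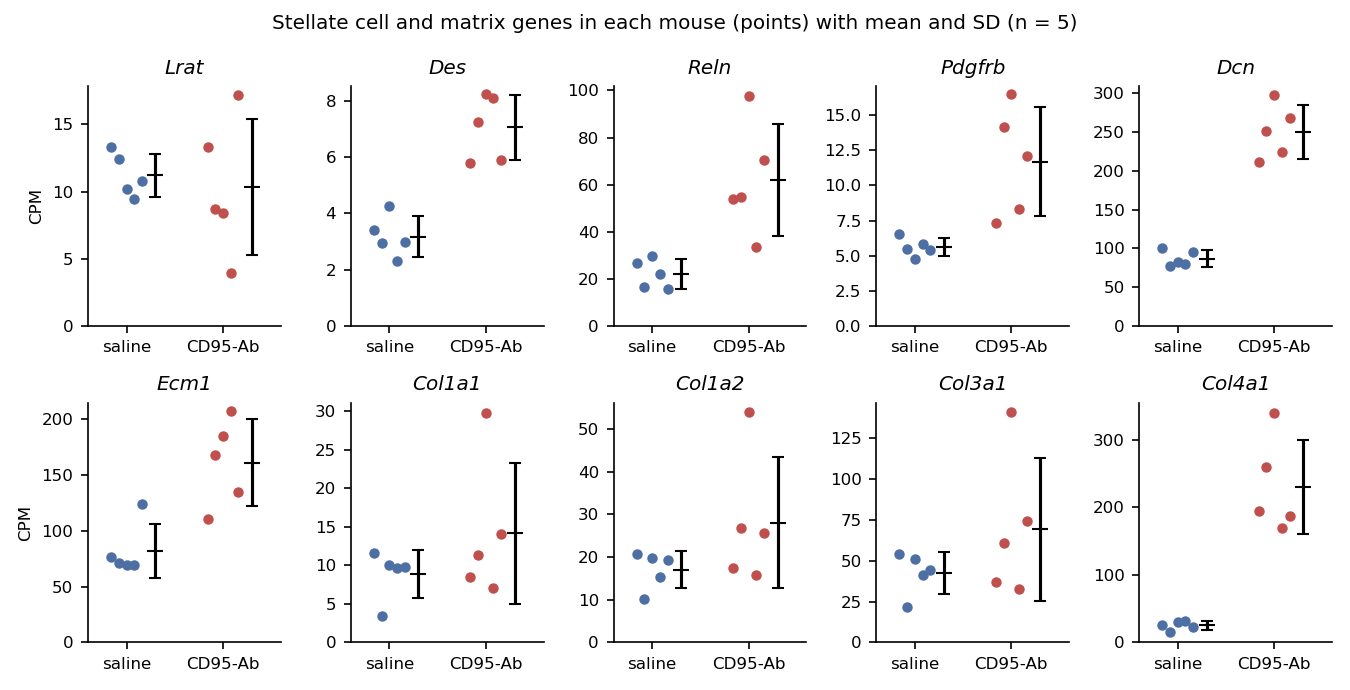
Level of each gene in CPM (vertical axis, starting at 0) in the 5 saline-injected mice (blue) and the 5 mice injected with CD95-Ab (red), with the mean and SD of each group in black. The groups do not overlap for Des, Reln, Pdgfrb, Dcn and Col4a1, whereas those of Lrat, Ecm1 and the fibrillar collagens do.

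Lrat (ENSMUSG00000028003, chr3:82892579-82903973), the retinol-esterifying enzyme that defines quiescent stellate cells, measured 13.3, 12.4, 10.2, 9.43 and 10.8 CPM in the saline mice and 13.3, 8.69, 8.44, 3.96 and 17.2 CPM in the CD95-Ab mice. The groups overlapped, and the CD95-Ab mice held both the lowest and the highest value of all. The mean was 11.2 ± 1.58 CPM (SD, n = 5) after saline and 10.3 ± 5.08 CPM (SD, n = 5) after CD95-Ab. The log2 fold change was -0.12 (SE 0.3, 95% interval -0.77 to 0.54, edgeR FDR = 0.772), so that a change between 0.585-fold and 1.45-fold lies within the interval. Without CD95-Ab replicate 4, the mouse at 3.96 CPM, the value was 0.07 and did not pass either.

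Des (ENSMUSG00000026208, chr1:75360329-75368579) encodes desmin, an intermediate filament protein of stellate and muscle cells. It measured 3.43, 2.94, 4.25, 2.31 and 2.97 CPM after saline and 5.78, 7.26, 8.24, 8.11 and 5.91 CPM after CD95-Ab. Every CD95-Ab mouse lay above every saline mouse. The mean rose from 3.18 ± 0.722 to 7.06 ± 1.17 CPM (SD, n = 5 per group), a log2 fold change of 1.15 (SE 0.19, 95% interval 0.74 to 1.55, edgeR FDR = 0.000384). Antisense genes overlap the spans of Des (Gm15179), Lrat (Rbm46os), Col4a1 (Gm15418) and Reln (Gm10475 and Gm16110), and the use of strand in counting is not given in the sources used here.

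Reln (ENSMUSG00000042453, chr5:21884454-22344702) encodes reelin, a large secreted glycoprotein that stellate cells produce in the liver. Its level was 26.7, 16.4, 29.9, 21.9 and 15.7 CPM in saline mice and 53.7, 54.8, 97.8, 33.4 and 70.4 CPM in CD95-Ab mice. The groups did not overlap, with the narrowest gap between CD95-Ab replicate 4 and saline replicate 3. Reln rose from 22.1 ± 6.25 to 62.03 ± 23.9 CPM (SD, n = 5 per group), 2.81-fold, with a log2 fold change of 1.49 (SE 0.27, 95% interval 0.89 to 2.09, edgeR FDR = 0.000911). Its long span also holds pseudogenes on both strands, and whether any reads were shared with them was not tested.

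Pdgfrb (ENSMUSG00000024620, chr18:61045150-61085061) encodes the PDGF receptor beta of mesenchymal cells. Its values were 6.56, 5.51, 4.79, 5.81 and 5.41 CPM after saline and 7.32, 14.2, 16.5, 8.36 and 12.1 CPM after CD95-Ab. The groups did not overlap, although CD95-Ab replicate 1 was close to the highest saline mouse. The mean rose from 5.62 ± 0.646 to 11.7 ± 3.86 CPM (SD, n = 5 per group), a log2 fold change of 1.06 (SE 0.21, 95% interval 0.59 to 1.53, edgeR FDR = 0.00175). No gene overlaps Pdgfrb in the annotation. The 3 stellate identity genes that passed the test thus rose between 2.08-fold and 2.81-fold.

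Both matrix glycoproteins rose. Dcn (ENSMUSG00000019929, chr10:97479609-97518143) encodes decorin, a small proteoglycan that binds collagen fibrils and transforming growth factor beta. It measured 100.9, 76.8, 82.7, 79.5 and 94.98 CPM in the saline mice and 211.1, 251.6, 298.5, 223.95 and 268.6 CPM in the CD95-Ab mice. The lowest CD95-Ab mouse was above the highest saline mouse, and Dcn had the smallest standard error of the 10 genes. Its mean rose from 86.99 ± 10.4 to 250.7 ± 34.97 CPM (SD, n = 5 per group), a log2 fold change of 1.53 (SE 0.14, 95% interval 1.23 to 1.83, edgeR FDR = 5.44e-06).

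Ecm1 (ENSMUSG00000028108, chr3:95734147-95739569) encodes extracellular matrix protein 1, a secreted protein that hepatocytes make and that restrains activation of latent transforming growth factor beta. Its level was 76.5, 70.8, 69.0, 69.6 and 124.5 CPM after saline and 110.6, 168.4, 184.96, 207.7 and 135.1 CPM after CD95-Ab. The groups overlapped through saline replicate 5, and 4 of 5 CD95-Ab mice were above it. Ecm1 rose from 82.1 ± 23.9 to 161.4 ± 38.8 CPM (SD, n = 5 per group), a log2 fold change of 0.97 (SE 0.21, 95% interval 0.51 to 1.44, edgeR FDR = 0.00285). With all mice kept, the exact permutation test on log2(CPM + 0.1) gave p = 0.0159 (two-sided, 5 against 5). The AP-1, GC and TATA motifs printed above for Ecm1 lie within its last 100 bases before the start.

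The fibrillar collagens did not pass the test, and their point estimates were close to each other. Col1a1 (ENSMUSG00000001506, chr11:94936224-94953042), the alpha 1 chain of type I collagen, measured 11.6, 3.47, 10, 9.7 and 9.73 CPM after saline and 8.44, 11.4, 29.8, 7.06 and 14.1 CPM after CD95-Ab. CD95-Ab replicate 3 stood above all other mice, and CD95-Ab replicates 1 and 4 lay below most saline mice. The mean of Col1a1 was 8.89 ± 3.13 and 14.2 ± 9.14 CPM (SD, n = 5 per group), with a log2 fold change of 0.67 (SE 0.4, 95% interval -0.2 to 1.53, edgeR FDR = 0.185). Col1a2 (ENSMUSG00000029661, chr6:4504814-4541544), the alpha 2 chain, measured 20.8, 10.1, 19.7, 15.4 and 19.2 CPM after saline and 17.4, 26.9, 54.02, 15.9 and 25.7 CPM after CD95-Ab. As for Col1a1, CD95-Ab replicate 3 was highest and saline replicate 2 lowest. Col1a2 had means of 17.03 ± 4.39 and 28.0 ± 15.3 CPM (SD, n = 5 per group) and a log2 fold change of 0.71 (SE 0.32, 95% interval 0.02 to 1.41, edgeR FDR = 0.0828). Its unadjusted interval excluded 0, but it missed the threshold over all tested genes.

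Col3a1 (ENSMUSG00000026043, chr1:45311538-45349706), the single chain of type III collagen, measured 54.2, 21.5, 51.02, 41.4 and 44.3 CPM in saline mice and 37.2, 60.6, 140.9, 32.7 and 74.3 CPM in CD95-Ab mice. The groups overlapped, and the same mice were at the extremes. Its means were 42.5 ± 12.8 and 69.2 ± 43.6 CPM (SD, n = 5 per group), with a log2 fold change of 0.7 (SE 0.38, 95% interval -0.12 to 1.52, edgeR FDR = 0.144). The upper bounds of the 3 intervals, 1.53, 1.41 and 1.52, leave room for a rise of up to 2.9-fold. Without CD95-Ab replicate 3 the log2 fold changes were 0.2 for Col1a1, 0.33 for Col1a2 and 0.26 for Col3a1, none past the threshold. Without CD95-Ab replicate 4, Col1a2 passed it at 0.83 (edgeR FDR = 0.0384).

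Col4a1 (ENSMUSG00000031502, chr8:11198423-11312826) changed most among the 10 genes. It measured 25.9, 16.1, 29.5, 31.9 and 22.2 CPM after saline and 194.9, 259.8, 339.1, 168.7 and 187.9 CPM after CD95-Ab. The lowest CD95-Ab mouse was far above the highest saline mouse. The mean rose from 25.1 ± 6.24 to 230.1 ± 69.9 CPM (SD, n = 5 per group), a 9.16-fold change (95% interval 6.32 to 13.3) and a log2 fold change of 3.2 (SE 0.25, edgeR FDR = 2.08e-06). Col4a2 (ENSMUSG00000031503, chr8:11312805-11449287), its partner in the type IV collagen trimer, is not among the 10 genes but was measured beside it. Col4a2 was 17.6, 11.1, 21.1, 24.2 and 18.6 CPM after saline and 70.6, 105.5, 158.2, 75.2 and 85.6 CPM after CD95-Ab. Its groups did not overlap either, and it rose by a log2 fold change of 2.42 (SE 0.26, 95% interval 1.85 to 2.99, edgeR FDR = 2.03e-05). The 22 bases shared by both first exons are a small part of either transcript.

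**Figure D2:**
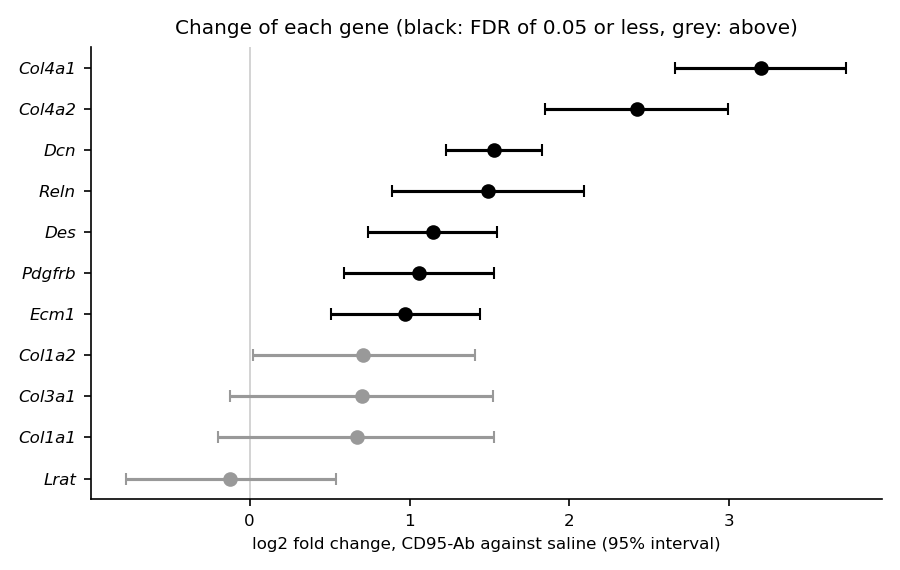
Log2 fold change between CD95-Ab and saline (horizontal axis) for each of the 10 genes and Col4a2, as points with 95% intervals from 5 mice per group. Black marks genes at an FDR of 0.05 or less: Col4a1 stands at 3.2, and Lrat, at -0.12, lies lowest.

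Whether genes of a pair changed by unequal amounts was tested within each mouse, as the log2 ratio of their CPM, for 8 pairs with exact two-sided permutation tests adjusted over the 8. The smallest p that 5 against 5 mice allow is 0.00794. Such a ratio hardly depends on how the totals of the mice were scaled.

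The ratio of Col4a1 to Col4a2 was 0.55, 0.53, 0.48, 0.4 and 0.26 on the log2 scale in the saline mice and 1.46, 1.3, 1.1, 1.16 and 1.13 in the CD95-Ab mice. All 5 CD95-Ab mice lay above all 5 saline mice, so Col4a1 rose more than Col4a2. The difference was 0.79 (95% interval 0.6 to 0.98, exact permutation p = 0.00794, adjusted p = 0.0317). The ratio of Col4a1 to Col1a1 moved further, from a mean of 1.56 ± 0.42 to 4.16 ± 0.5 (SD, n = 5 per group) on the log2 scale. This difference of 2.6 (95% interval 1.94 to 3.33, exact permutation p = 0.00794, adjusted p = 0.0317) separated all CD95-Ab mice from all saline mice, so Col4a1 rose relative to Col1a1.

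The ratios among the fibrillar collagens did not pass the test. The ratio of Col1a1 to Col1a2 differed between groups by -0.04 on the log2 scale (95% interval -0.37 to 0.34, exact permutation p = 0.865, adjusted p = 0.921). That of Col3a1 to Col1a1 differed by -0.01 (95% interval -0.24 to 0.2, exact permutation p = 0.921, adjusted p = 0.921). Col3a1 stayed within 2.08 and 2.6 log2 units of Col1a1 in all 10 mice. The log2 ratio of Col1a1 to Col1a2 spread further, from -1.51 in saline replicate 2 to -0.66 in saline replicate 4. Shifts of either ratio within these intervals could not be seen with 5 mice per group.

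Lrat and Des diverged. The log2 ratio of Lrat to Des was 1.92, 2.04, 1.25, 1.98 and 1.84 after saline and 1.19, 0.26, 0.03, -1.02 and 1.53 after CD95-Ab. Only CD95-Ab replicate 5 reached into the range of the saline mice. The difference was -1.41 (95% interval -2.47 to -0.29, exact permutation p = 0.0159, adjusted p = 0.0423), so Lrat fell relative to Des although its own level did not pass the test. Leaving out any 1 of the 5 saline mice took the adjusted p of Lrat to Des above 0.05, with values of 0.0794, 0.106, 0.0635, 0.106 and 0.106 without saline replicates 1 to 5, at differences between -1.55 and -1.35.

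The other ratios did not pass. Reln to Des differed by 0.31 on the log2 scale (95% interval -0.44 to 0.97, exact permutation p = 0.365, adjusted p = 0.584), and the interval covers a sizeable shift in either direction. Pdgfrb to Des differed by -0.15 (95% interval -0.87 to 0.47, exact permutation p = 0.627, adjusted p = 0.836). Dcn to Ecm1 differed by 0.54 (95% interval 0.05 to 1.02, exact permutation p = 0.0397) but missed the threshold after adjustment (adjusted p = 0.0794). Without CD95-Ab replicate 4, which had the highest Ecm1 value, the adjusted p of Dcn to Ecm1 was 0.0212. With any other single mouse left out, this adjusted p lay between 0.0794 and 0.159 and did not pass.

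**Figure D3:**
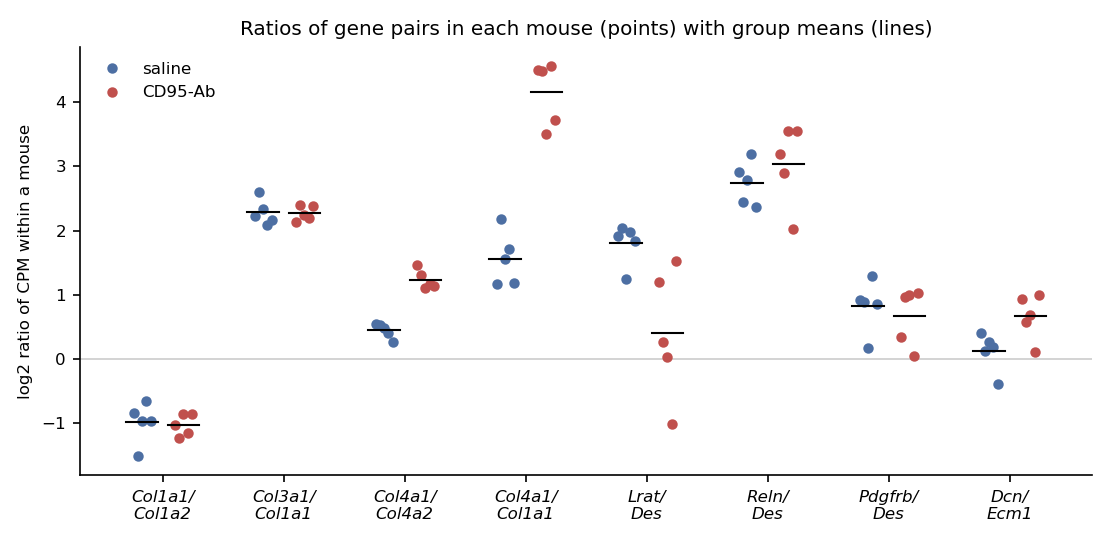
Log2 ratio of the CPM of 2 genes within a mouse (vertical axis) for 8 pairs, in saline mice (blue) and CD95-Ab mice (red), with group means as lines. Both ratios with Col4a1 separate the groups, and Lrat/Des spreads from -1.02 to 1.53 after CD95-Ab. The ratios among fibrillar collagens overlap between the groups.

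Levels of different genes were compared per length with the FPKM values that the authors deposited, which are fragment counts scaled for transcript length and library size. In saline mice the order of mean FPKM was Dcn 49.8, Ecm1 49.7, Col3a1 7.92, Reln 7.1, Col4a1 3.96, Col1a2 3.38, Lrat 2.21, Col1a1 1.56, Des 1.12 and Pdgfrb 1.09. Dcn and Ecm1 had nearly equal means far above the rest, and among neighbours in this order only Ecm1 and Col3a1 had ranges over the 5 mice that did not overlap. After CD95-Ab the order was Dcn 135.2, Ecm1 93.7, Col4a1 34.3, Reln 15.9, Col3a1 12.0, Col1a2 5.13, Des 2.31, Col1a1 2.31, Pdgfrb 2.11 and Lrat 1.96. Col4a1 moved from rank 5 to rank 3 and Lrat from rank 7 to rank 10. After CD95-Ab, Dcn was above Ecm1 and Ecm1 above Col4a1 without overlap, as was Col1a2 above Des. The last 4 genes could not be ordered. Compared within each CD95-Ab mouse, Col4a1 was above Reln, Reln above Col3a1 and Col3a1 above Col1a2 in all 5, although their ranges overlapped. Within saline mice, Ecm1 was above Col3a1 and Lrat above Col1a1 in all 5. No other neighbours in the saline order kept it in every mouse.

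**Figure D4:**
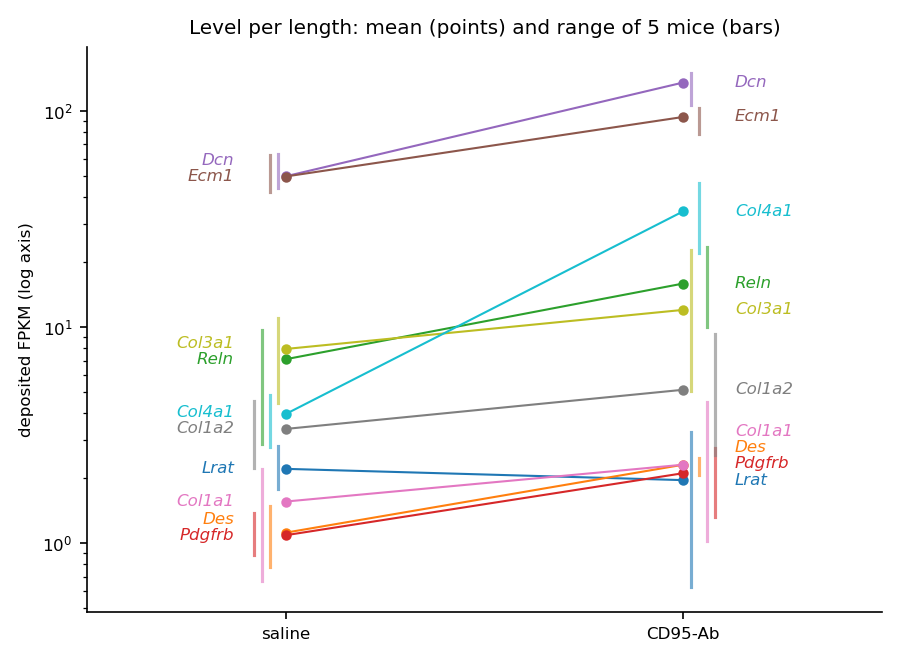
Deposited FPKM (vertical axis, log scale) of the 10 genes in both groups, as means joined by lines with bars for the range of 5 mice. The line of Col4a1 crosses those of Reln and Col3a1, from 3.96 to 34.3 FPKM, whereas Lrat stays between 2.21 and 1.96 FPKM.

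Single mice held much of the spread. CD95-Ab replicate 3 had the highest value of its group for 8 of the 10 genes and CD95-Ab replicate 4 the lowest for 6. Among the saline mice, replicate 1 was highest for 6 genes and replicate 2 lowest for 5. Without CD95-Ab replicate 3, the genes Des, Reln, Pdgfrb, Dcn, Ecm1 and Col4a1 still passed, with log2 fold changes of 1.08, 1.27, 0.9, 1.45, 0.91 and 3.01. The genes whose values over the 10 mice were most like those of 3 chosen members were sought among 12129 tested genes with at least 1 CPM on average, as the root mean square difference of log2(CPM + 0.1) from the saline mean. For Col1a1 the closest were Col3a1 at 0.146, Col1a2 at 0.228 and Notch4 at 0.261. For Col4a1 they were Slco3a1 at 0.252, Itpkb at 0.258 and Gm12840 at 0.289, and for Lrat they were Gm9864 at 0.282, Gm2026 at 0.283 and Atf7 at 0.29. Col3a1 was thus nearer to Col1a1 than any gene found for Lrat or Col4a1 was to its own.

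Other genes known from stellate cells moved in both directions. Of 17 listed, 16 were tested, and 8 were higher, 4 lower and 4 not past the threshold, with a median log2 fold change of 0.4. Across all tested genes, 25.4% were higher and 22.0% lower, shares against which the counts of this and the following lists are to be read. With upper quartile or total-count scaling, 7 of the stellate cell genes were higher and 5 lower. The largest rises were those of Steap4, a metalloreductase also made by hepatocytes, from 111.7 to 2238.4 CPM (log2 fold change 4.32, SE 0.35), and of Nes, the filament protein nestin, from 1.33 to 24.7 CPM (4.2, SE 0.22). Hgf, the hepatocyte growth factor, rose from 2.12 to 10.4 CPM (log2 fold change 2.31, SE 0.37) and Ngfr, the low-affinity neurotrophin receptor, from 2.84 to 12.0 CPM (2.07, SE 0.29). Among the genes that fell, Pth1r, the parathyroid hormone receptor, went from 6.62 to 1.04 CPM (log2 fold change -2.63, SE 0.34), and the transcription factor genes Hand2 and Lhx2 had log2 fold changes of -2.06 and -1.25. Vipr1, a receptor for vasoactive intestinal peptide, fell by 0.68 on the log2 scale. Gfap, a filament gene often used to mark stellate cells, had too few counts to test, with a mean of 0.186 CPM after saline and 0.148 CPM after CD95-Ab. Without CD95-Ab replicate 3, Cygb and Adamtsl2 no longer passed, which left 6 higher and 4 lower.

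Most of the listed genes of myofibroblast activation rose. All 16 that were tested of 18 listed were higher, with a median log2 fold change of 2.25. Of all tested genes, 25.4% were higher. Cnn1 and Actg2 had too few counts to test. Their means were lower after CD95-Ab, but the saline means rested on saline replicates 1 and 3. Cnn1 was at 0.47 CPM after saline and 0.222 CPM after CD95-Ab, and Actg2 at 0.479 and 0.377 CPM. In saline replicates 1 and 3, Cnn1 was 1.29 and 0.93 CPM and Actg2 1.11 and 1.1 CPM. The other saline mice reached at most 0.077 CPM for Cnn1 and 0.13 CPM for Actg2. Every CD95-Ab mouse lay above these, from 0.121 CPM for Cnn1 and 0.283 CPM for Actg2. Acta2 rose from 3.06 to 11.3 CPM (log2 fold change 1.86, SE 0.65), with groups that overlapped. Timp1, an inhibitor of metalloproteinases, rose from 0.124 to 4.69 CPM (log2 fold change 5.19, SE 0.4), Tnc, the matrix protein tenascin C, from 0.438 to 12.0 CPM (4.72, SE 0.44), and the calcium-binding protein gene S100a6 from 1.42 to 13.4 CPM (3.22, SE 0.28). Lox, the enzyme that crosslinks collagen, rose from 0.255 to 2.45 CPM (log2 fold change 3.23, SE 0.66). Several of these genes are also expressed by injured hepatocytes, endothelium or leukocytes. Without CD95-Ab replicate 3 the count was 14, since Acta2 and Thy1 no longer passed, and the median was 1.77. The count was 15 without CD95-Ab replicate 4 and with each other scaling.

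Among 12 further fibrillar and associated collagens, 5 were higher, 1 was lower and 6 did not pass, with a median log2 fold change of 0.73. Col8a1, a short-chain collagen, had a log2 fold change of 2.15 (SE 0.48) at a mean of 1.06 CPM after CD95-Ab. Col12a1, Col14a1 and Col5a2, whose products sit on or within collagen fibrils, had log2 fold changes of 1.58, 1.15 and 1.03. Col18a1, which hepatocytes express and which is the source of endostatin, went from 775.0 to 522.7 CPM (log2 fold change -0.57, SE 0.14). Of 22 further basement membrane genes, 20 were tested, and 13 were higher and 0 lower, with a median of 1.03. Besides Col4a2, rises included those of Nid1, encoding the linker protein nidogen 1, from 9.68 to 50.9 CPM (log2 fold change 2.39, SE 0.32), and of the laminin chain gene Lama2, at 1.71. Without CD95-Ab replicate 3 the basement membrane genes gave 9 higher and 1 lower, the lower one being Col4a5 (log2 fold change -1.21), which was named after its value was seen. Lama5, Lamb2 and Lamc3 were among those that no longer passed.

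Enzymes that fold, process or crosslink collagen were higher in 14 of 25 tested cases, lower in 1 and not past the threshold in 10, with a median log2 fold change of 0.72. Besides Lox, its relatives Loxl2 and Loxl4 rose by log2 fold changes of 2.76 and 1.83, and Plod2, a lysyl hydroxylase, by 1.86. Bmp1, which removes the end of procollagen, fell by 0.71 on the log2 scale. Of 22 other matrix proteins, 19 were tested, and 9 were higher and 0 lower, with a median of 0.79. Thbs1, encoding thrombospondin 1, rose from 1.92 to 191.4 CPM (log2 fold change 6.62, SE 0.28), and Vcan, encoding the proteoglycan versican, from 0.192 to 11.7 CPM (5.9, SE 0.36). Fbn1, the fibrillin 1 gene, and Lum, the gene of the fibril-binding proteoglycan lumican, had log2 fold changes of 1.74 and 1.21.

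Receptors for matrix were higher in 10 of 14 tested cases and lower in 1, with a median log2 fold change of 1.04. Cd44, the hyaluronan receptor, rose from 7.53 to 46.4 CPM (log2 fold change 2.62, SE 0.35), and the integrin chains Itgb3 and Itga6 and the collagen receptor Ddr1 had log2 fold changes of 2.07, 1.65 and 1.49. Itgb5, another integrin chain, fell by 0.86 on the log2 scale. Among PDGF ligands and the alpha receptor, 4 of 5 were higher and 0 lower. Pdgfb, which encodes the main ligand of the receptor beta, rose from 0.488 to 2.94 CPM (log2 fold change 2.58, SE 0.22), Pdgfa, Pdgfra and Pdgfc had log2 fold changes of 1.79, 1.67 and 0.96, and Pdgfrb itself was at 1.06. Of the reelin receptors, Vldlr fell by 1.44 on the log2 scale, from 3.53 to 1.32 CPM. Lrp8, named after its value was seen because it lay under 1 CPM in both groups, had a log2 fold change of 2.64 (SE 0.5), and the adaptor gene Dab1 had too few counts to test.

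Genes that handle retinoids, the pathway of Lrat, showed no common direction. Of 9 tested, 1 was higher, 2 were lower and 6 did not pass, with a median log2 fold change of -0.06. Among all tested genes, 47.3% passed, 25.4% as higher and 22.0% as lower. Stra6l, a receptor for retinol-binding protein in liver, rose from 129.0 to 203.5 CPM (log2 fold change 0.66, SE 0.15). Dhrs3, which reduces retinal to retinol, went from 100.0 to 37.6 CPM (log2 fold change -1.41, SE 0.21), and Rbp4, the plasma carrier of retinol made by hepatocytes, fell by 0.64 on the log2 scale. Genes of matrix turnover were higher in 11 of 14 tested cases and lower in 0, with a median of 3.65. The metalloproteinase genes Mmp13, Mmp8 and Mmp12 and the aggrecanase gene Adamts4 had log2 fold changes of 7.44, 6.57, 5.27 and 7.19. Mmp8 is a neutrophil collagenase and Mmp12 a macrophage elastase. Across the lists with at least 9 tested genes, the medians lay between -0.06 for retinoid handling and 3.65 for matrix turnover, with the 10 genes at 1.02.

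**Figure D5:**
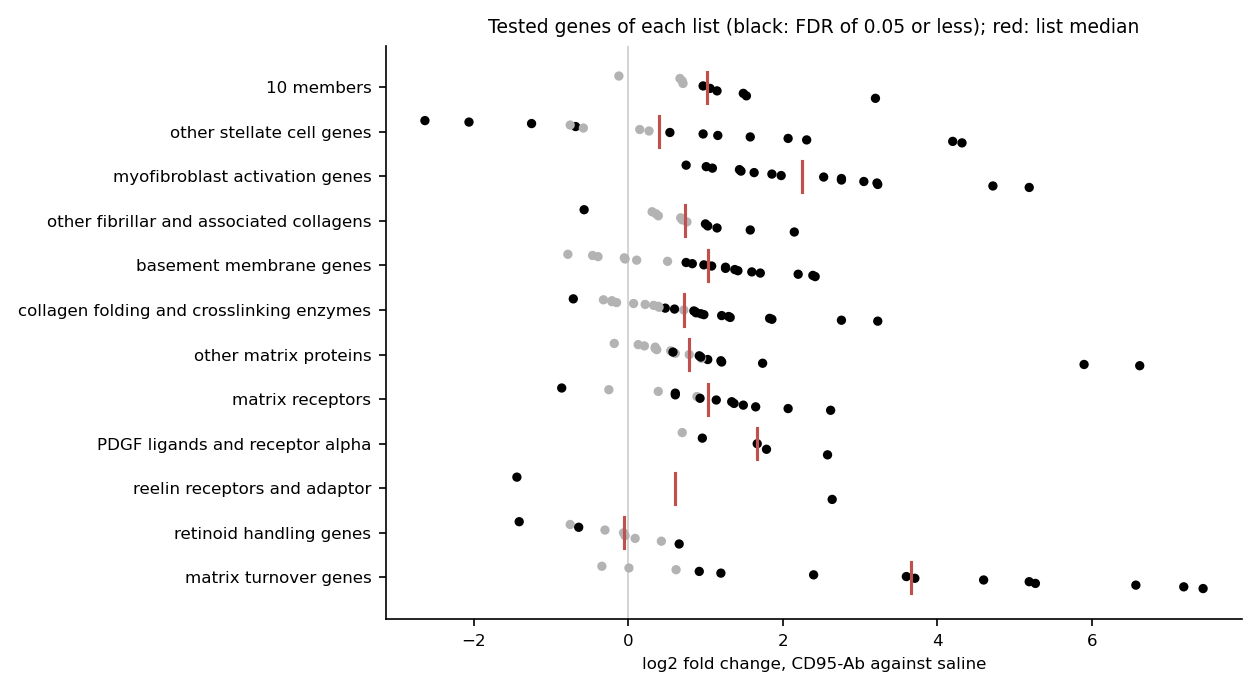
Log2 fold change between CD95-Ab and saline (horizontal axis) of each tested gene in the 10 members and 11 further lists, with black for an FDR of 0.05 or less, grey for the rest and a red line at the list median. The myofibroblast list lies entirely to the right of 0, and the retinoid list is centred on it at -0.06.

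Summed markers of endothelium, hepatocytes and cholangiocytes separated the groups, while the sums of portal fibroblasts, smooth muscle and Kupffer cells overlapped. The counts below are to be read against the 25.4% of all tested genes that were higher and the 22.0% that were lower. Markers of sinusoidal endothelium, which also makes type IV collagen, summed to between 73.7 and 165.3 CPM after saline and between 242.0 and 462.9 CPM after CD95-Ab, and 7 of 9 were higher. Hepatocyte markers summed to between 99675.0 and 126899.2 CPM after saline and between 43839.7 and 81843.6 CPM after CD95-Ab, with 4 of 8 lower. Those of portal fibroblasts and mesothelium ranged from 6.37 to 9.96 CPM and from 8.72 to 31.8 CPM, and 1 of 5, Thy1, was higher. Smooth muscle markers summed to between 4.89 and 15.5 CPM after saline and between 14.3 and 16.7 CPM after CD95-Ab, with Smtn alone higher among 3 tested of 5 listed. For Kupffer cells 2 of 6 were higher, with sums of 111.0 to 386.9 CPM and 212.2 to 514.7 CPM, and for cholangiocytes 3 of 4, with sums of 2.96 to 4.58 CPM and 23.7 to 99.0 CPM.

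Blood cell markers and small RNAs separated the groups. Neutrophil markers rose in 5 of 5 tested cases (6 listed), from sums of 2.42 to 5.93 CPM to sums of 91.3 to 413.5 CPM. Erythrocyte markers rose in 5 of 5, from 134.9 to 323.4 CPM to 1063.6 to 33994.5 CPM. Small RNAs were listed with RNA quality in mind and with earlier results of these data known (Rn7sk, Rmrp, Rpph1, Snora81 and Gm26083). All 4 tested (5 listed) rose, from sums of 0.278 to 0.885 CPM to sums of 357.5 to 1311.2 CPM. The highest log2 fold change of this list, 10.96, was also the highest of all tested genes. Because of that choice, the rise of these RNAs is no independent result. Whether RNA quality or library preparation differed between the groups was not tested. Such a difference could not be told apart from the treatment. CD95-Ab replicate 3, the highest for 8 of the 10 genes, was also the highest CD95-Ab mouse for the sums of endothelium, hepatocytes, portal fibroblasts, smooth muscle, cholangiocytes, neutrophils and erythrocytes. Saline replicate 2, lowest for all 3 fibrillar collagens, was the lowest saline mouse for the sums of endothelium, hepatocytes, portal fibroblasts and smooth muscle. No marker on these lists was at 0 in every mouse. The part of these cell types and RNA classes in the values of the 10 genes was not tested.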

How the data were processed

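Liver RNA of 10 mice, 5 per group, was analysed, and groups and replicate numbers came from the sample labels. Per the labels, TruSeq libraries from 500 ng of RNA were read as pairs of 100 bp. The authors assigned reads to genes with RSEM 1.2.19 and deposited 2 values for each gene in each mouse, the expected count and FPKM. The deposited expected counts are whole numbers without normalization, and the deposited FPKM values are scaled for length and library. RSEM shares out reads that fit several genes, so values of overlapping genes depend on that step. The mouse annotation and build used for counting are not given in the sources used here. Symbols came from a table of gene names and positions from GENCODE (GRCm38).

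After filterByExpr and TMM scaling, edgeR 4.0.16 (R 4.3.3) compared the groups over 13719 genes with its quasi-likelihood test, without covariates. Benjamini-Hochberg adjustment ran over all tested genes, and the SE was derived from the F statistic. Single genes and gene pairs were compared with exact two-sided permutation tests over 252 splits on log2(CPM + 0.1), with pair intervals from inverting that test. Python 3.11.15 with scipy 1.17.1 and pandas 2.3.3 made the tables, and the code was tested on simulated counts.

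The 10 genes and all lists were chosen with earlier results of these data known. Named are the 10 genes, Col4a2, the 3 genes closest to Col4a1, Col1a1 and Lrat, and per list up to 4 rises and 4 falls among genes past the threshold with at least 1 CPM in a group. Some genes are in 2 lists, among them Lox, Loxl2, Timp1, Thy1, Cnn1 and Actg2. Not every gene that meets the naming rule is reported here. Alternatives were DESeq2 1.42.0, the likelihood ratio test, other scaling factors, filters, thresholds and added constants, FPKM, a block for the replicate number and leaving out single mice. For lists, the values without CD95-Ab replicate 3 or 4, with DESeq2, with other scaling and with the block were added after seeing the data. Whether mice came from separate cages or days is not stated, and p-values cover the spread among these mice. Intervals include the spread among mice, and the limit of 3 counts per mouse covers counting error only. Protein, histone and survival data were not analysed here.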

Additional observations from a re-analysis of the deposited data

Results flagged for a closer look

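Values of 4 mice stood far from the rest of their group, among 38 groups of 5 values examined, of which chance would mark about 1 in 20. Ecm1 was 124.5 CPM in saline replicate 5, against 69.0 to 76.5 CPM in the other saline mice. Col1a1 was 3.47 CPM in saline replicate 2, against 9.7 to 11.6 CPM in the others. Col1a2 was 54.02 CPM in CD95-Ab replicate 3, against 15.9 to 26.9 CPM in the others. The log2 ratio of Lrat to Des was 1.25 in saline replicate 3, against 1.84 to 2.04 in the others.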

How the results depend on the processing

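The count of 6 of the 10 genes past the threshold was obtained in each alternative except without CD95-Ab replicate 4, where it was 7 (6 to 7 over the mice left out). Of 198 alternative log2 fold changes of the 10 genes and Col4a2, 196 kept their direction and their side of the threshold, and Col1a2 passed it without CD95-Ab replicate 4. Lrat lay between -0.38 and 0.07 over the mice left out, and was above 0 without CD95-Ab replicate 4. Over all genes, the count of 6495 ranged from 4492 at an FDR of 0.01 to 6990 with DESeq2, and from 5616 to 6977 with a mouse left out. No matching of mice with the same replicate number was seen (correlations of deviations from group means between -0.274 and 0.257). Their mean was 0.037, against -0.006 for different numbers, but so few mice cannot exclude matching. With the replicate block, 6 of the 10 genes and 5987 of all genes passed. Under the block, a sign-flip test called 0 pairs and 0 single genes, since its smallest p is 0.0625. Between 2 and 4 pairs passed with a mouse left out. Without CD95-Ab replicate 3, Thy1 no longer passed, so the portal fibroblast and mesothelium list had 0 genes higher, against 1 with all mice, 3 without CD95-Ab replicate 4, 2 with DESeq2 and 0 with each other scaling. The Kupffer list had 1 gene higher in place of 2 with upper quartile or total-count scaling. The retinoid list had 2 higher in place of 1 with DESeq2, and the collagen enzymes 2 lower in place of 1 with upper quartile scaling. The further fibrillar and associated collagens had 7 higher in place of 5 with DESeq2, and also 7 without CD95-Ab replicate 4. Scaling alternatives moved the median of all genes by less than 0.1 on the log2 scale. Genes under about 1 CPM rest on few reads, and 5 mice per group leave wide intervals for the fibrillar collagens; the cause of their spread was not tested.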
